A study of Mus musculus with 8 samples.

Results

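The mitochondrial ribosome and protein import genes are the genes whose symbol on the array starts with Mrpl, Mrps, Timm or Tomm. Mrpl and Mrps stand for proteins of the large and small subunit of the mitochondrial ribosome. Timm and Tomm are named for the translocases of the inner and outer mitochondrial membrane. There were 96 such genes of 12394 genes measured, 74 of the ribosome (47 Mrpl, 27 Mrps) and 22 with an import symbol (15 Timm, 7 Tomm). They are covered by 170 probe sets, a probe set being a group of probes on the array that gives 1 value for a transcript or several. Each gene was read from the probe set that was brightest on average. Their levels were compared in sorted CD4-CD8- T lineage cells of mice given the dioxin TCDD, an agonist of the aryl hydrocarbon receptor (AhR), in a study of how that receptor bears on the emigration of thymocytes. The 8 Affymetrix arrays fall into 4 groups of 2: emigrants under TCDD, emigrants under oil, thymocytes under TCDD and thymocytes under oil. All mice were female C57BL/6 of 6 to 8 weeks, with no allele named. The TCDD groups received 10 µg/kg in corn oil into the peritoneum and the oil groups corn oil alone. After 5 days the thymus of every mouse was labelled with FITC, a fluorescent dye, and 24 h later CD4-CD8- cells were sorted from the spleen (the emigrants) or from the thymus (the thymocytes). The organ and the cell source therefore cannot be told apart. No label says whether the 2 arrays of a group come from separate mice, so every p-value measures only the spread between these arrays, and their number limits the precision.

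Several labels contradict each other. For emigrants oil 1 the Treatment field gives TCDD, for emigrants oil 2 it gives Dioxane 2, the Tissue field of emigrants oil 2 and emigrants TCDD 1 reads thymus, and the description of the TCDD thymocyte arrays mentions oil alone. The Treatment field gives 10 nM for emigrants oil 1 and every TCDD array, whereas the dose above is in µg/kg. Groups follow the titles. The summed linear signal of 9 AhR target genes was 1502 and 1296 in emigrants under TCDD against 267.3 and 263.3 in emigrants under oil, and 2761 and 2833 in thymocytes under TCDD against 416.9 and 367.6 in thymocytes under oil, so emigrants oil 1 lay with the other oil array on this measure. Of 11 measured markers of developing T cells, all lay above the median of their arrays in at least 1 array of each group. Their summed signal was 4166 to 7332 in emigrants and 10260 to 11710 in thymocytes. By mean, 8 were lower in emigrants and 3 higher under oil, by up to 2.15 on the log2 scale. Under TCDD 9 were lower and 2 higher, by up to 1.17. Rag1, which cuts the antigen receptor genes in immature lymphocytes, was at 9.81 (log2 signal) in emigrants oil 2, within the thymocyte range of 9.33 to 10.21, and at 3.75 to 5.10 in the other emigrant arrays. Emigrants TCDD 2 stood apart from the other arrays on the second principal component of all genes.

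Mitochondria keep their own ribosome. Its RNA comes from the mitochondrial genome, all its proteins are made in the cytosol from nuclear genes, and it translates the membrane-bound core subunits of the respiratory chain. Those ribosomal proteins, like nearly all other mitochondrial proteins, enter through the TOM complex of the outer membrane. The TIM23 complex then draws precursors with a presequence into the matrix, the TIM22 complex inserts carrier proteins into the inner membrane, and small Timm chaperones escort hydrophobic precursors across the space between the membranes. Dividing lymphocytes build up mitochondrial translation, and thymocytes at the CD4-CD8- stage include strongly dividing cells.

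Most of the 96 genes had a lower mean in emigrants than in thymocytes. Under oil, 88 of 96 had a lower mean in emigrants, with a median difference of -0.47 on the log2 scale against 0.00 over all genes. Under TCDD, 85 of 96 were lower in emigrants, with a median of -0.30 against 0.04 over all genes, and 82 genes (85.4%) were lower in both comparisons, against 31.3% of all genes. The 2 comparisons use different arrays. No member passed the test in either. In limma with Benjamini-Hochberg adjustment the smallest adjusted p of a member was 0.184 under oil and 0.337 under TCDD, and 0% of all genes were called in either comparison. At an unadjusted p under 0.05, 26 of 96 members (27.1%) were lower in emigrants under oil, where 5.09% of all genes were, and none was higher, where 4.48% of all genes were. Under TCDD, 14 members (14.6%) were lower, against 4.45% of all genes, and none was higher, against 3.81%. Single arrays moved these counts. Under oil the count was 9 without emigrants oil 1 (9.38%, against 2.73% of all genes), 16 without emigrants oil 2 (16.7% against 4.45%), 14 without thymocytes oil 1 (14.6% against 3.95%) and 14 with emigrants oil 1 placed by its Treatment field (14.6% against 3.46%). Under TCDD it was 7 without emigrants TCDD 2 (7.29% against 2.14%) and 9 without thymocytes TCDD 2 (9.38% against 4.25%). Both arrays of emigrants lay below both of thymocytes for 56 members (58.3%) under oil, against a background of 19.6% of all genes, and above both for 1 member, against 19.8%. Under TCDD the emigrant arrays lay below for 43 members (44.8%), against 15.5% of all genes, and above for 2, against 22.1%. Without thymocytes TCDD 1 the 43 were 75 (78.1%), against 27.0% of all genes. With 2 arrays against 2, an exact permutation test of a single gene cannot give a two-sided p below 0.333.

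All 4 emigrant arrays lay below all 4 thymocyte arrays for 31 members (32.3%), against 6.04% of all genes, and for no member did all emigrant arrays lie above, against 6.87% of all genes. The 31 are 27 ribosome genes of 74 and 4 Timm and Tomm genes of 22 (Timm10, Timm50, Timmdc1 and Tomm20). Timmdc1 is among the 22 by its symbol alone and lay below the array medians in every group. It differed by -0.10 under oil and -0.35 under TCDD. Without emigrants oil 2 the count was 39, and without emigrants TCDD 2 it was 32; without thymocytes TCDD 1 it was 48. Fewer arrays make separation easier, and the background share was 8.88%, 8.25% and 7.40% in those settings. The median distance of the members from their own means over the arrays was -0.19 and -0.23 in emigrants under TCDD, -0.25 and -0.08 in emigrants under oil, -0.03 and 0.27 in thymocytes under TCDD, and 0.20 and 0.27 in thymocytes under oil. Emigrants oil 2 was thus the highest emigrant array and thymocytes TCDD 1 the lowest thymocyte array, and these medians of the emigrants and the thymocytes did not overlap.

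**Figure D1:**
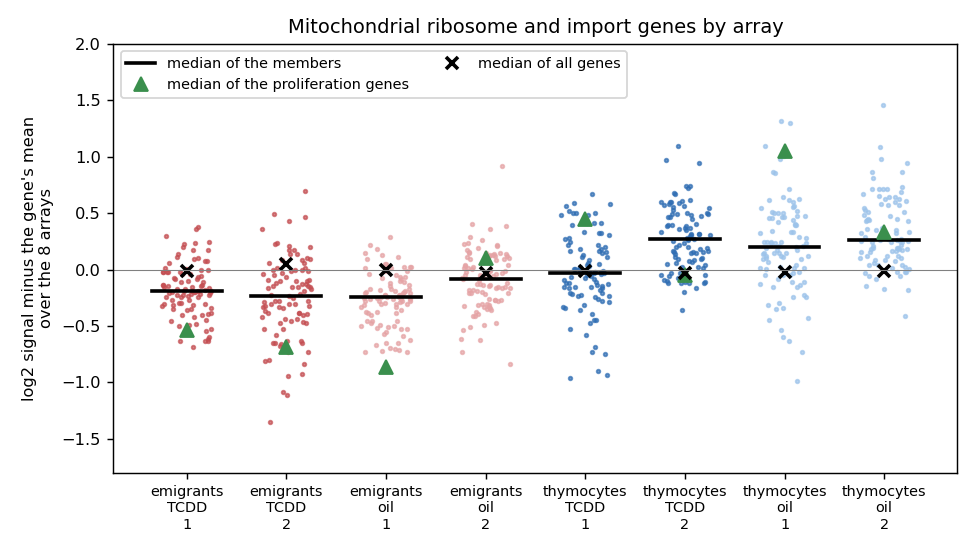
Log2 signal of each of the 96 genes minus that gene's mean over the 8 arrays (vertical axis), by array, with 1 point per gene, a line at the members' median, a triangle at the median of 18 proliferation genes and a cross at the median of all genes. The members' medians run from -0.25 to -0.08 in the emigrant arrays and from -0.03 to 0.27 in the thymocyte arrays, while the medians of all genes stay between -0.03 and 0.05.

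Start site regions of members that lay apart between the cell sources are printed next, because they hold the binding motifs of regulators known for nuclear genes of mitochondria. A promoter here is the stretch of 250 bases before to 50 bases after a RefSeq transcript start (GRCm38.p6, 300 bases, read 5′ to 3′ on the gene's strand). Promoters were found for 85 of the 96 genes, 93 in all. Capitals mark matches, on either strand, to the motifs of NRF1 (GCGCANGCG), of ETS factors such as GABPA (CCGGAAG) and of YY1 (AAGATGGC), and to the E-box bound by MYC (CACGTG). The regions are chr9:98601630-98601929 (minus strand) for Mrps22, chr17:35916391-35916690 (minus) for Mrps18b, chr11:120484387-120484686 (plus) for Mrpl12, chr2:84826771-84827070 (plus) for Timm10, chr7:28311997-28312296 (minus) for Timm50 and chr8:126945872-126946171 (minus) for Tomm20. These 6 were chosen after the values were seen, as genes below in all emigrant arrays that show each motif.
Mrps22: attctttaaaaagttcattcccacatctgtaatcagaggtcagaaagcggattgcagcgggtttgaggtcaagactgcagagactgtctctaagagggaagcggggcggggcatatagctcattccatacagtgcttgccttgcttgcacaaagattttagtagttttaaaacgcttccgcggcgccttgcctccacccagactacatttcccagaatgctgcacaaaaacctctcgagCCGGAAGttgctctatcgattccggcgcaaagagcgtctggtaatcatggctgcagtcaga
Mrps18b: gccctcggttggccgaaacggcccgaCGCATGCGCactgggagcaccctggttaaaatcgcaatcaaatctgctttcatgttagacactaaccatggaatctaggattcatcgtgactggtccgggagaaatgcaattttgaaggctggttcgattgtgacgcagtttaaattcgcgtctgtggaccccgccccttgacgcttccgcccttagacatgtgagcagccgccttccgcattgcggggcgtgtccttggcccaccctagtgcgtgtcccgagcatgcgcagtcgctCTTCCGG
Mrpl12: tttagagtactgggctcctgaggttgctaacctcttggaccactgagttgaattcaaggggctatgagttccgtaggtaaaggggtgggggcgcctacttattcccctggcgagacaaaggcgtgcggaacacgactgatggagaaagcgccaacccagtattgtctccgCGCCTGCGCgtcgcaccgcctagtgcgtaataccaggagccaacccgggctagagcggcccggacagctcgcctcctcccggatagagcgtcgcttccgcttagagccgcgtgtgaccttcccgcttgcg
Timm10: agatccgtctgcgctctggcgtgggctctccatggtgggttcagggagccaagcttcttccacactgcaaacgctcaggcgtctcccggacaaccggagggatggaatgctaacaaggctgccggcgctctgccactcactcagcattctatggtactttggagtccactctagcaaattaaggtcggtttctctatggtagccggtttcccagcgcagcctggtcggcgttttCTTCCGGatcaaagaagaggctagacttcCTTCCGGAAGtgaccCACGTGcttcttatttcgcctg
Timm50: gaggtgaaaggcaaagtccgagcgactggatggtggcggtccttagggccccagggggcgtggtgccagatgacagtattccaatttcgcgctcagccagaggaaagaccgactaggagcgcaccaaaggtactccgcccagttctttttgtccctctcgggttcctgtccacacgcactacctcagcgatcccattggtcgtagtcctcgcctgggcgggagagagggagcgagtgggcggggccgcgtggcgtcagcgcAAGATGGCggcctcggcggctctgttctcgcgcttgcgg
Tomm20: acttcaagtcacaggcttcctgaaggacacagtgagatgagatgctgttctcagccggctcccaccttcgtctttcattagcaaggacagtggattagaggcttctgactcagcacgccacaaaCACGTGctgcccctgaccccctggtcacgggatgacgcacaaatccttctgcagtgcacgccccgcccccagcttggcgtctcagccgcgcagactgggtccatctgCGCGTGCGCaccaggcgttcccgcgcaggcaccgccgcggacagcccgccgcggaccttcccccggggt

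The Mrps22 promoter has an ETS match 11 bases before the start, and that of Timm10 holds 3 ETS matches, of which 2 are the same palindromic stretch read on both strands, followed by an E-box. In Timm50 the YY1 match begins at base 12 of the transcript. An ETS match was in 35 of the 93 member promoters (37.6%), in 14.01% of the promoters of all genes on the array and in 8.86% of all promoters of the table. For YY1 the shares were 12.9%, 3.60% and 2.75%, and for NRF1 19.4%, 10.6% and 6.25%. The E-box was in 11.8% of member promoters, 9.11% of those on the array and 7.15% of all. The core of the AhR site (GCGTG) was in 55.9%, 45.3% and 32.4%, and the SP1 motif (GGGCGG) in 53.8%, 55.4% and 35.7%. Member promoters had a median of 21 CG dinucleotides, against 17 on the array and 7 over all promoters, and each of these motifs except that of YY1 holds at least 1 CG. Within the members the ETS share was 39.3% in the 28 promoters of genes below in all 4 emigrant arrays and 36.9% in the 65 of the others. A match describes these letters in this window and no binding was measured.

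**Figure D2:**
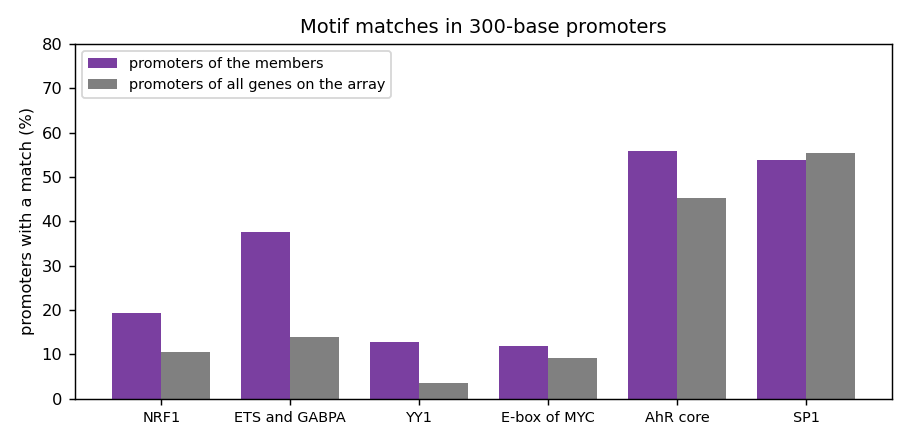
Share of promoters with at least 1 match (vertical axis, percent) for 6 motifs, with purple bars for the 93 promoters of the members and grey bars for the promoters of all genes on the array. The ETS share is 37.6% against 14.01% and the SP1 share 53.8% against 55.4%.

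Among the 27 small subunit genes, 26 had a lower mean in emigrants under oil and 24 under TCDD, with median differences of -0.45 and -0.24. Mrps22, a structural protein of the small subunit whose promoter is given above, had a log2 signal of 5.97 and 5.67 in emigrants under TCDD and 5.82 and 5.90 in emigrants under oil, against 6.62 and 6.78 in thymocytes under TCDD and 6.83 and 6.95 in thymocytes under oil. The emigrant arrays were all low, the thymocyte arrays all high, and the gap between them was wider than the spread within either. The difference was -1.02 ± 0.16 (SE) under oil, 2.03-fold lower (unadjusted p = 0.000595, limma adjusted p = 0.184), and -0.89 ± 0.16 under TCDD (limma adjusted p = 0.337). For Mrps18b, 1 of 3 mammalian forms of the bacterial S18 protein, values were 5.30 and 5.38 in emigrants under TCDD, 5.30 and 5.33 in emigrants under oil, 6.19 and 6.19 in thymocytes under TCDD, and 6.67 and 6.05 in thymocytes under oil. All emigrant arrays sat within a narrow low band, with a difference of -1.04 ± 0.22 under oil (2.06-fold lower, limma adjusted p = 0.232) and -0.85 ± 0.22 under TCDD (limma adjusted p = 0.381). The related Mrps18a and Mrps18c had differences of -0.26 and -0.56 under oil, so the 3 forms lay on the same side to unequal degrees. Mrps31 differed by -0.54 under oil and -0.66 under TCDD, Mrps7, a homologue of bacterial S7 at the head of the subunit, by -0.42 and -0.19, and Mrps28 by -0.71 and -0.65. Mrps12, homologue of the bacterial decoding protein S12, went the other way with a higher mean in emigrants (0.41 under oil, 0.33 under TCDD). Its arrays overlapped, because thymocytes numbered 1 were at 6.01 (TCDD) and 5.72 (oil) and thymocytes numbered 2 at 7.10 (TCDD) and 7.23 (oil).

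Among the 47 large subunit genes, 43 had a lower mean in emigrants in each comparison, with medians of -0.52 under oil and -0.39 under TCDD. The lowest difference under TCDD was that of Mrpl18, a protein of the central protuberance of the large subunit. Its log2 signal was 5.26 and 4.93 in emigrants under TCDD and 5.62 and 5.77 in emigrants under oil, against 6.04 and 6.50 in thymocytes under TCDD and 6.17 and 6.75 in thymocytes under oil. No emigrant array reached a thymocyte array. The difference was -1.17 ± 0.26 under TCDD, 2.25-fold lower (limma adjusted p = 0.364), and -0.76 ± 0.26 under oil (limma adjusted p = 0.414). Under oil the lowest difference was that of Mrpl12, the homologue of bacterial L7/L12, which recruits translation factors. It was at 6.06 and 5.55 in emigrants under TCDD, 5.50 and 5.87 in emigrants under oil, 6.53 and 6.12 in thymocytes under TCDD, and 7.49 and 6.45 in thymocytes under oil. One thymocyte array under oil was far above the others, and the difference of -1.29 ± 0.38 under oil (limma adjusted p = 0.348) was -0.77 without it. Under TCDD it was -0.52 ± 0.38.

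Mrpl58, which frees stalled mitochondrial ribosomes by releasing the peptide chain, differed by -1.19 under oil and -0.80 under TCDD. Mrpl40 was at 6.76 and 6.95 in emigrants under TCDD and 6.50 and 6.55 in emigrants under oil, against 7.04 and 7.12 in thymocytes under TCDD and 7.67 and 7.06 in thymocytes under oil. Mrpl3 differed by -0.82 under oil and -0.96 under TCDD, Mrpl11, a protein of the stalk base, by -0.79 and -0.41, Mrpl15 by -0.63 and -0.60, and Mrpl37 by -0.77 and -0.18. Mrpl49 differed by -0.79 under oil and -0.70 under TCDD, with no fold because its emigrant arrays under TCDD (4.86 and 4.67) lay below their array medians. Mrpl16, homologue of bacterial L16 near the peptidyl transferase centre, was the 1 member whose emigrant arrays lay above both thymocyte arrays under oil. It was at 9.55 and 9.27 in emigrants under TCDD and 9.46 and 9.53 in emigrants under oil, against 8.27 and 9.39 in thymocytes under TCDD and 8.54 and 9.36 in thymocytes under oil. The low values were the thymocyte arrays numbered 1, and the difference of 0.55 ± 0.42 under oil did not pass (limma adjusted p = 0.768).

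The 22 Timm and Tomm genes had smaller differences than the ribosome genes as medians, -0.32 against -0.50 under oil and -0.26 against -0.32 under TCDD. No test compares the 2 families. In the outer membrane all 3 receptors had lower means in emigrants. Tomm20, the receptor for presequences, was at 10.33 and 8.87 in emigrants under TCDD and 10.00 and 9.91 in emigrants under oil, against 10.47 and 10.83 in thymocytes under TCDD and 10.73 and 10.67 in thymocytes under oil. Emigrants TCDD 2 was by far the lowest array. The difference was -1.05 ± 0.44 under TCDD (limma adjusted p = 0.607) and -0.74 ± 0.44 under oil (limma adjusted p = 0.690). Without emigrants TCDD 2 the difference under TCDD was -0.32. All 5 probe sets of Tomm20 had lower means in emigrants. Tomm70a, the receptor for carrier proteins, differed by -1.04 under TCDD and -0.38 under oil, and Tomm22, the central receptor, by -0.38 and -0.43. The second probe set of Tomm22 differed by -0.88 under TCDD and -0.74 under oil. Tomm7, a small subunit that modulates the assembly of TOM, differed by -0.63 under TCDD and -0.65 under oil. The pore protein Tomm40 lay below the array medians in every group and gets no fold, with 0.11 under TCDD and -0.24 under oil. Tomm34, a cytosolic cochaperone, differed by -0.22 and -0.35.

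In the inner membrane the TIM23 genes were mixed. Timm50, the receptor of the complex, was at 4.42 and 4.18 in emigrants under TCDD and 4.29 and 3.94 in emigrants under oil, below the array medians, against 5.13 and 4.46 in thymocytes under TCDD and 5.54 and 4.54 in thymocytes under oil, a difference of -0.93 under oil and -0.50 under TCDD. The emigrant arrays were all lower, by little for the thymocyte arrays numbered 2. The channel protein Timm23 differed by -0.41 under oil and -0.10 under TCDD, Timm17a, its partner, by -0.68 and -0.31, and Timm44, which tethers the import motor, by -0.32 and -0.08. Timm17b, the other form of Timm17, had higher means in emigrants (0.37 under oil, 0.81 under TCDD), with overlapping arrays in both comparisons. Its second probe set differed by -0.07 under oil and 0.12 under TCDD. The carrier translocase genes Timm22, Timm29 and Timm10b had a median difference of 0.00 under oil and -0.05 under TCDD.

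Among the 6 small chaperones, Timm10, which forms a ring with Timm9, had a narrow spread within groups. It was at 6.32 and 6.35 in emigrants under TCDD and 6.16 and 6.19 in emigrants under oil, against 7.19 and 7.12 in thymocytes under TCDD and 7.14 and 6.92 in thymocytes under oil. The arrays of each group lay close together and the 2 sources far apart, with a difference of -0.86 ± 0.14 under oil (1.82-fold lower, limma adjusted p = 0.184) and -0.82 ± 0.14 under TCDD (1.77-fold lower, limma adjusted p = 0.337). Its partner Timm9 lay below the array medians in every group. Timm13 was higher in emigrants under TCDD, at 7.77 and 7.83 against 6.85 and 7.75 in thymocytes under TCDD, and lower under oil (-0.17), while its partner Timm8a1 differed by -0.81 under TCDD and -0.61 under oil with overlapping arrays. Timm8b differed by -0.45 and -0.29. In all, 5 members had higher means in emigrants in both comparisons on the probe set used: Mrpl16, Mrpl27, Mrps12, Timm17b and Timm22. They were higher by at most 0.55 under oil and 0.81 under TCDD.

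**Figure D3:**
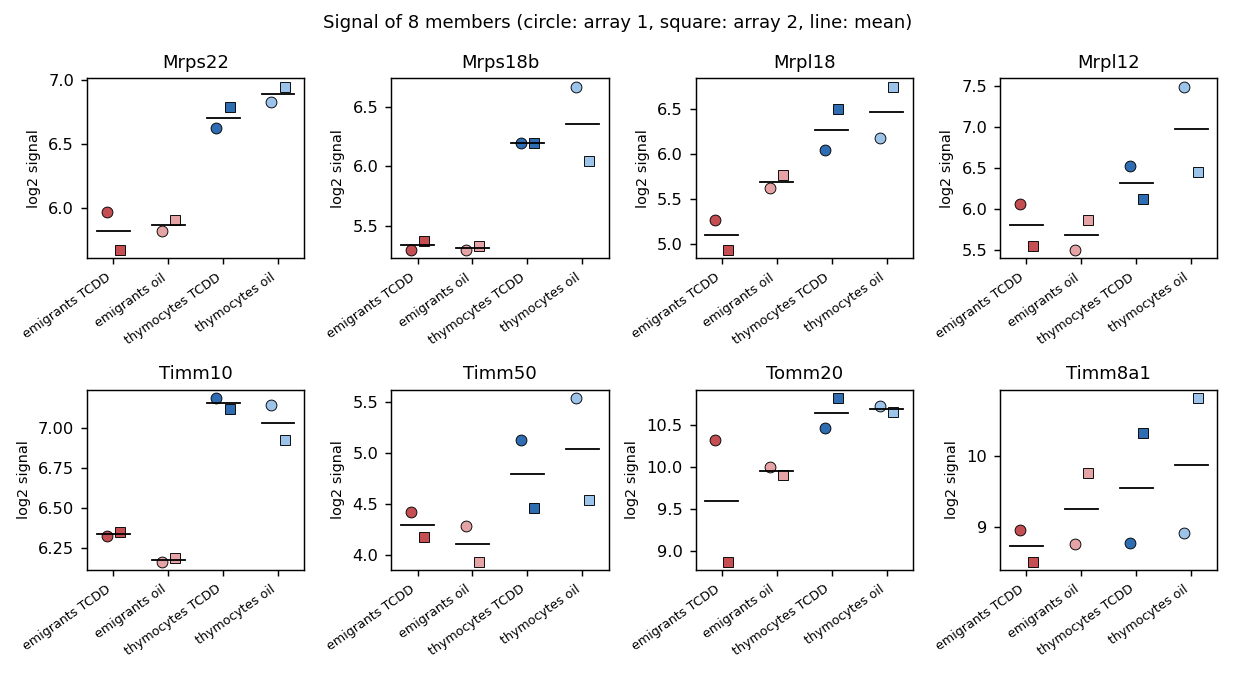
Log2 signal (vertical axis, own scale per panel) of 8 members in the 4 groups, with circles for arrays numbered 1, squares for arrays numbered 2 and a line at the mean of each group. Mrps22 and Timm10 separate emigrants from thymocytes in every array, whereas Timm8a1 reaches 10.32 and 10.81 in the thymocyte arrays numbered 2 and 8.77 and 8.92 in those numbered 1.

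Other genes of mitochondrial translation and import, listed apart from the rule, lay to unequal degrees on the same side. All 5 measured genes listed as ribosomal proteins without an Mrpl or Mrps symbol had lower means in emigrants (medians -0.43 under oil, -0.50 under TCDD). Among them Dap3, a GTP-binding small subunit protein, was at 7.65 and 6.88 in emigrants under TCDD against 8.47 and 7.88 in thymocytes under TCDD. The list also holds Ndufab1, which counts in the respiratory chain set below as well. It differed by -0.23 under oil and -0.13 under TCDD, with overlapping arrays. Of 20 further import, motor and processing genes, 18 were lower under oil and 16 under TCDD (medians -0.33 and -0.31). Of 93 genes with respiratory chain symbols (Nduf, Sdh, Uqcr, Cox or Atp5), 71 were lower under oil and 60 under TCDD (medians -0.24 and -0.14). Of 49 genes with cytosolic ribosome symbols (Rpl or Rps before a digit), 38 and 39 were (medians -0.28 and -0.24). Both sets were taken by symbol, so assembly factors and kinases with such symbols were not left out. Both emigrant arrays lay below both thymocyte arrays for 41.9% of the respiratory chain set under oil and 30.1% under TCDD. For the cytosolic ribosome set the shares were 44.9% and 42.9%, for the members 58.3% and 44.8%, and for all genes 19.6% and 15.5%. Of 6 translation factors, 5 were lower in each comparison (medians -0.27 and -0.14), and of 13 assembly and rRNA modification genes 10 and 9 were (medians -0.15 and -0.13). Of 10 transcription and RNA processing genes, 6 were lower under oil and 8 under TCDD (medians -0.24 and -0.28). The 8 aminoacyl-tRNA synthetases were nearly even, with 5 and 4 lower (medians -0.11 and -0.01), and the 10 nuclear regulators had medians of 0.07 and -0.10, with 4 and 7 lower. None of the genes on these lists passed the adjusted test. Of the nuclear regulators whose motifs were searched, Nrf1 differed by 0.10 under oil and -0.10 under TCDD, Gabpa by 0.07 and -0.82, Yy1 by -0.18 and -0.49, and Myc by -1.26 and -0.67, again with none past the test.

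**Figure D4:**
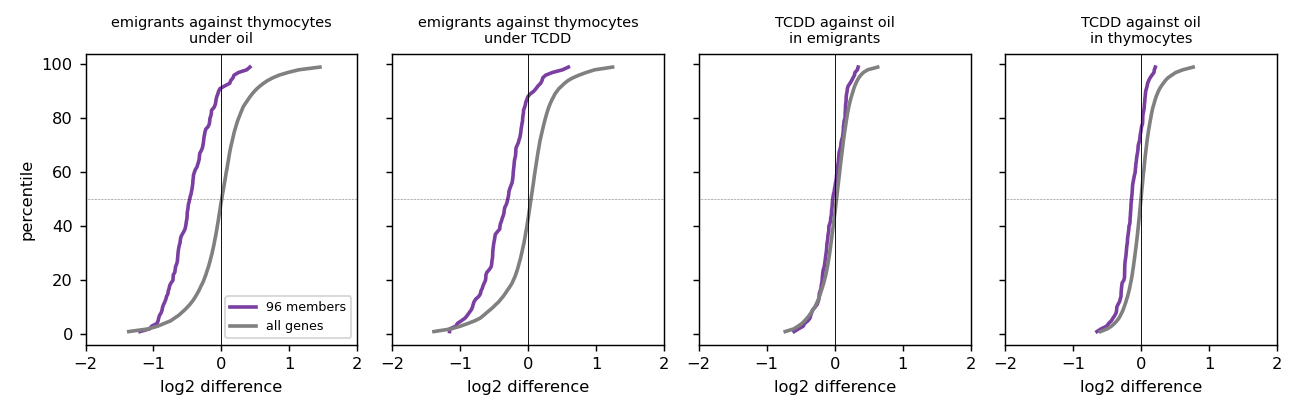
Percentiles (vertical axis) of the log2 difference (horizontal axis) of the 96 members (purple) and of all genes (grey) in the 4 comparisons. The members' curve is shifted to lower values in both comparisons of emigrants with thymocytes, with member medians of -0.47 under oil and -0.30 under TCDD, and lies near that of all genes for TCDD in emigrants, with a median of -0.03 for the members and 0.03 for all genes.

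Nearly all markers of cell division had lower means in emigrants. Markers of other cell types went in differing directions, and the summed signals of the granulocyte and NK cell markers overlapped between the sources. The summed signal of 18 proliferation genes was 7240 and 6137 in emigrants under TCDD and 5429 and 9929 in emigrants under oil, against 14100 and 9812 in thymocytes under TCDD and 17540 and 13690 in thymocytes under oil. All 18 had lower means in emigrants under oil and 17 under TCDD, with medians of -1.02 and -0.92. Among emigrants the array with the highest member median, oil 2, also had the highest proliferation signal, whereas in thymocytes TCDD 2 had the lowest proliferation signal with the highest member median (0.27), and TCDD 1 the lowest member median (-0.03) with the second highest signal. Of 8 granulocyte markers, all were lower in emigrants under oil and 6 higher under TCDD, with summed signals of 581.4 to 6018 in emigrants and 1093 to 3630 in thymocytes. The 4 NK cell markers summed to 937.7 to 2606 in emigrants and 428.4 to 1505 in thymocytes, and the 7 macrophage markers to 1076 to 2422 in emigrants and 637 to 1048 in thymocytes. Of 5 B cell markers, all had lower means in emigrants under oil, and under TCDD 3 were lower and 2 higher. The 5 summed to 119.2 to 157.8 in emigrants and 303.4 to 776.7 in thymocytes. Of these, Cd79a and Pax5 lay below the array medians in every group, while Ms4a1 was at 4.57 to 5.36 in emigrants and 6.96 to 8.93 in thymocytes, and Cd79b at 4.89 to 5.69 in emigrants and 6.14 to 7.55 in thymocytes. In bulk samples like these, fewer cells of a type and less RNA per cell cannot be told apart, and the part of these markers in the members' values was not tested.

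TCDD was compared with oil within each source. In thymocytes, 73 of 96 members had a lower mean under TCDD, with a median of -0.15 against -0.01 over all genes. No member passed (smallest unadjusted p of a member 0.0684, limma adjusted p = 1), 0% of all genes were called, and no member had an unadjusted p under 0.05, where 1.57% of all genes did. Both TCDD arrays lay below both oil arrays for 13 members (13.5%), against 11.4% of all genes, and above for 2, against 9.78%, so the share below was near the background. The median was -0.19 between the arrays numbered 1 and -0.05 between those numbered 2, and without thymocytes TCDD 1 it was 0.02. Mrpl38 was at 3.95 and 4.03 in thymocytes under TCDD against 4.64 and 4.33 under oil, all below the array medians, and Mrps25 at 4.96 and 5.33 against 5.62 and 5.40. Mrps9 was at 6.24 and 7.00 against 7.03 and 7.04. In each of these the arrays were separate and the gap was small. Mrps11 differed by -0.36 and Mrpl4 by -0.59, and the 2 members above were Mrpl36 (0.20) and Mrpl32 (0.15). Of the 18 proliferation genes, 17 had a lower mean under TCDD in thymocytes, with a median of -0.37, and their part in the members' values was not tested.

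In emigrants the members were divided, 44 higher and 52 lower under TCDD, with a median of -0.03 against 0.03 over all genes. Again 0% of all genes were called and no member had an unadjusted p under 0.05, against 1.18% of all genes. The TCDD arrays lay below the oil arrays for 11 members (11.5%), against 10.1% of all genes, and above for 7 (7.29%), against 14.6%. Mrpl18 was at 5.26 and 4.93 under TCDD against 5.62 and 5.77 under oil, a difference of -0.60 ± 0.26 (limma adjusted p = 1). Tomm70a was at 7.42 and 7.29 against 7.78 and 8.18, a difference of -0.62 ± 0.27 (limma adjusted p = 1). Among members lower under TCDD without overlap of the arrays, these 2 had the smallest p, and Mrps9 (-0.36), Mrpl49 (-0.23) and Timm9 (-0.26) followed. Of the 7 higher without overlap, the first 5 by p were Mrpl51, at 7.97 and 8.00 under TCDD against 7.36 and 7.92 under oil, then Mrpl40 (0.33), Tomm40 (0.22), Timm10 (0.16) and Mrpl43 (0.17). All 5 TIM23 genes had a higher mean under TCDD in emigrants (median 0.09) and a lower one in thymocytes (median -0.25). The arrays did not overlap for 1 of the 5 in emigrants and for none in thymocytes. Of all 12394 genes, 6895 had a higher mean under TCDD in emigrants and 6371 a lower one in thymocytes. The test of the difference between the 2 TCDD effects called 0% of all genes, and no member had an unadjusted p under 0.05 in it, against 1.18% of all genes. The median of that difference over the members was 0.08.

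The replicate number went with larger differences than TCDD did. In thymocytes the median size of the difference between arrays numbered 2 and arrays numbered 1 was 0.385 for the members and 0.233 for all genes, whereas for TCDD against oil it was 0.157 and 0.111. In emigrants the sizes were 0.203 and 0.180 for the number and 0.136 and 0.131 for TCDD. Both thymocyte arrays numbered 2 lay above both numbered 1 for 48 members (50%), against 32.4% of all genes, and below for 22 members (22.9%), against 30.9%. In emigrants the counts were 31 (32.3%), against 24.9%, and 20 (20.8%), against 22.8%. Timm8a1, which with Timm13 guides the precursor of Timm23, showed the widest split in thymocytes, 1.72 on the log2 scale. Its second probe set showed the same order, with 6.41 (TCDD) and 6.84 (oil) in the arrays numbered 2 against 5.74 (TCDD) and 5.73 (oil) in those numbered 1. Mrpl27 split by 1.35 and Mrps12 by 1.30, while Mrps30 (-0.88) and Mrpl12 (-0.73) were lower in the arrays numbered 2. The members thus lay on both sides of this split, in thymocytes more often higher in the arrays numbered 2. Their median signed difference there was 0.152, against 0.008 over all genes, and in emigrants 0.008 against 0.023. The labels do not say what the number marks.

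**Figure D5:**
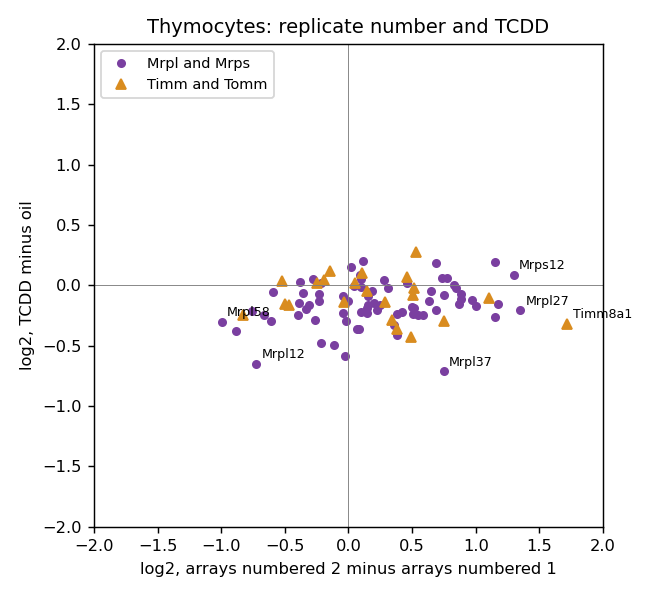
For each of the 96 members in thymocytes, the log2 difference of arrays numbered 2 minus arrays numbered 1 (horizontal axis) and of TCDD minus oil (vertical axis), with circles for Mrpl and Mrps genes and triangles for Timm and Tomm genes. The points spread further along the number axis, to 1.72 for Timm8a1, than along the TCDD axis, where they lie between -0.71 and 0.28.

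Of the 96 members, 44 had more than 1 probe set, and 53 of the 74 further probe sets had a difference of the same sign as the one used under oil, and 52 under TCDD. Among the 41 further probe sets above the median of the arrays it was 34 and 31. For TCDD against oil in emigrants 39 of 74 had the same sign. Both arrays of every group lay below their array medians for 6 members, Mrpl38, Mrpl54, Timm8a2, Timm9, Timmdc1 and Tomm40, whose levels were not shown to be above background.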

How the data were processed

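Per the labels' protocols, RNA of the sorted CD4-CD8- cells went through amplification and onto Affymetrix arrays. The authors deposited log2 values of 22690 probe sets for 8 arrays, and the submitters' processing notes name RMA, with no version. RMA corrects background and makes the arrays' value distributions alike, so a shift shared by most genes would not show, and dim probe sets are compressed. Symbols came from the platform annotation: 20393 probe sets with 1 symbol were kept, and 691 with several symbols and 1606 without one were not. Each of 12394 genes was read from its probe set with the highest mean. Array medians were 4.81 to 4.91, and no measure of signal over background was used here.

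A linear model of the 4 group means was fitted per gene to all 8 arrays with limma 3.58.1 (R 4.3.3), leaving 4 residual degrees of freedom. Moderated two-sided p-values were adjusted over all genes by Benjamini-Hochberg, with 0.05 as the threshold. Residual SDs had a median of 0.308 over members and 0.223 over all genes. The script was tested on simulated data. The members, the gene lists and the tests were chosen with earlier results of these data known. Named are, per comparison, members past the threshold, otherwise up to 5 per direction with the smallest p and no overlap between arrays, and members fixed by role. Of the role genes, Mrps27 was not measured under that symbol. Promoters came from RefSeq (GRCm38.p6) by gene identifier. Alternatives covered normalization, the probe set rule, the Treatment field, the replicate block and each array left out; counts without overlap and unadjusted counts were added after the data were seen.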

Additional observations from a re-analysis of the deposited data

Results flagged for a closer look

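Mrpl51 and Tomm40 were each separated by TCDD in opposite directions in the 2 cell sources: in emigrants the oil arrays were both exceeded by both TCDD arrays, and in thymocytes the order was turned round. For Mrpl51, a large subunit protein, the difference was 0.35 in emigrants and -0.23 in thymocytes, and the test of the difference between them gave 0.58 on the log2 scale (unadjusted p = 0.0966, limma adjusted p = 1). For Tomm40, which lay below the array medians in every group, the difference was 0.22 in emigrants and -0.14 in thymocytes, and that between them 0.35 (unadjusted p = 0.128, limma adjusted p = 1). Such opposite separation was seen in 2 of 96 members (2.08%) and in 2.53% of all genes, so the members' share was near the background.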

How the results depend on the processing

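No member passed the adjusted test in any comparison under 17 of the 18 alternatives of each source comparison or under any of the TCDD alternatives. Arrays of the same number shared deviations inside a source (r = 0.759 in thymocytes and 0.495 in emigrants over all genes) and less across sources (-0.097 under TCDD and 0.109 under oil; over the members 0.078 and 0.326), with 2 pairs per comparison and no label on what the number marks. With a replicate block within each source, 15 members (15.6%) were called under oil and 6 (6.25%) under TCDD, all lower in emigrants. Of all genes 6.61% and 3.73% were called in either direction, 386 and 241 genes being lower. At a limma unadjusted p under 0.05 with that block, 50 members (52.1%) were lower under oil, against 11.6% of all genes. Under TCDD 36 (37.5%) were, against 11.3%. That block lies within a source, so it takes the spread between numbers out of the error against which the sources are set, and its extra calls rest on that smaller error. With 1 replicate block across sources no member was called. At a limma unadjusted p under 0.05, 39 members (40.6%) were then lower under oil, against 6.6% of all genes. Under TCDD 23 (24%) were, against 6.41%. 
The median member difference between emigrants and thymocytes stayed below 0 in every alternative. With each array left out it ran from -0.57 to -0.32 under oil and from -0.43 to -0.18 under TCDD, and for TCDD from -0.31 to 0.02 in thymocytes and from -0.12 to 0.02 in emigrants. Under oil it was -0.32 with the mean of a gene's probe sets and -0.32 when emigrants oil 1 followed its Treatment field, which also left 14 members at an unadjusted p under 0.05 and lower. Among 79 members brighter than the median gene it was 16 (20.3%, against 7.25% of such genes). Over all 170 probe sets of the members, 41 were at that p and lower under oil (24.1%, against 4.84% of all probe sets) and 25 under TCDD (14.7% against 4.21%), and 68 lay without overlap under TCDD (40.0% against 15.1%). With each array left out, members at an unadjusted p under 0.05 numbered 9 to 27 under oil and 7 to 18 under TCDD, members without overlap 56 to 78 and 43 to 75 (the highest being 81.2% and 78.1% of members, against 34.6% and 27.0% of all genes in the same setting, since 1 array separates more easily), and members below in all emigrant arrays 32 to 48. Leaving out emigrants oil 1 gave the lowest count under oil (9), and leaving out emigrants TCDD 2 the lowest under TCDD (7); a lone array was taken to vary like the other groups.
Some gene differences changed sign, among them that of Timm8a1 under oil (-0.61 over all arrays). Timm44 under TCDD was 0.048 with repeated quantile normalization, and Timm22 under TCDD was -0.0023 with arrays centred on their medians. With the Treatment field, Mrpl51 for TCDD in emigrants was -0.14 and Timm13 under oil 0.10. With each array left out, differences under TCDD ran from -0.48 to 0.041 for Tomm34, -0.22 to 0.068 for Timm44, -0.24 to 0.35 for Timm22, -0.21 to 0.88 for Mrps12, -0.26 to 0.068 for Timm23, -0.74 to 0.12 for Timm17a, -0.53 to 0.18 for Mrpl37 and -0.80 to 0.040 for Tomm22. Under oil they ran from -0.12 to 0.86 for Timm17b, -0.034 to 0.38 for Timm22, -0.34 to 1.17 for Mrps12, -1.55 to 0.34 for Timm8a1 and -0.44 to 0.10 for Timm13. The cause of these shifts was not tested. Arrays give no read depth; the 2 arrays per group and the dim members set the precision.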

Other observations

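Members read only by probe sets that list a further gene were left out of the counts. The probe set of Tomm5, a small TOM subunit, which also lists the predicted gene Gm8069, was at 8.46 and 8.29 in emigrants under TCDD and 8.38 and 8.52 in emigrants under oil, against 9.21 and 8.83 in thymocytes under TCDD and 9.15 and 8.84 in thymocytes under oil. All emigrant arrays lay below all thymocyte arrays. The probe set of Mrpl30 and Gm6238 differed by -0.41 under oil and -0.75 under TCDD, emigrants minus thymocytes. The brighter of the 2 probe sets shared by Tomm6 and Prickle4 went the other way, at 9.26 and 9.32 in emigrants under TCDD and 9.27 and 9.28 in emigrants under oil, against 8.76 and 8.86 in thymocytes under TCDD and 8.42 and 8.87 in thymocytes under oil. Which of the listed genes gives these signals was not tested.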
